A study of Mus musculus with 2 samples.

Results

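The collagen genes were studied in sorted cells of mouse gliomas, as every gene symbol made of Col, a number, the letter a and a number. The deposited counts listed 36 such genes among 18366 genes, 33 in each of the 2 libraries and 30 in both. The libraries are the 2 replicates of 1 group and are here called pool 1 and pool 2; there was no control group. All tumours had been induced in C57BL/6 mice by somatic transfer of PDGFB, a ligand gene of the platelet-derived growth factor receptor Pdgfra, into the embryonic telencephalon in utero. They were taken about 40 days after birth, and their cells were sorted by GFP. Each pool mixed cells of 2 tumours before capture, and cells were not assigned to a tumour, so n = 2 pools and differences between tumours within a pool were not seen. Expression was measured by droplet sequencing of the 3′ ends of polyadenylated RNA, as counts of unique molecular identifiers (UMIs). A UMI count counts molecules and is not scaled by gene length, so levels of different genes are set side by side as CPM, the UMIs of a gene scaled to a fixed total of all UMIs.

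Collagens are matrix proteins whose chains wind into a helix. Fibril-forming collagens (types I, II, V, XI, XXIV and XXVII here) build fibres. Types IX, XII, XIV, XVI, XIX, XX and XXII are known as fibril-associated collagens or resemble them in structure. Type IV forms the sheet of basement membranes, type XVIII carries the endostatin fragment, and types XIII, XXIII and XXV span the cell membrane. In cartilage, types II, IX and XI are known to assemble together into 1 kind of fibril. Most brain parenchyma holds little fibrillar collagen, and in healthy brain the collagens of types I and IV are best known from vessels and meninges.

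Of 3843 and 3650 barcodes in pools 1 and 2, 3506 and 3278 remained once barcodes under 500 genes or over 15% mitochondrial UMIs were set aside. Kept cells had medians of 7440 and 11272 UMIs, and the pools shared 4 cell barcodes. Markers of the oligodendrocyte precursor lineage were abundant: all 9 were above 10 CPM in both pools, with summed levels of 10577 and 9877 CPM. The 10 endothelial markers summed to 5.06 and 5.90 CPM, with Cdh5, Ly6c1, Tek and Emcn listed in neither pool. The 10 mural markers summed to 2.36 and 1.78 CPM, and the 10 fibroblast markers to 9.12 and 9.96 CPM, with Dcn and Dpt listed in neither. The pools also differed in Xist, the RNA of the inactive X chromosome, which ran from 1029 to 3904 CPM over the clusters tested in pool 1 and was at 0 in pool 2. Intervals are 95% and cover counting error only.

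The genes around which the results turn are shown by the bases before their transcription start. They are 250 bases from RefSeq on GRCm38.p6, written 5′ to 3′ on the gene's own strand, with the GC box letters GGGCGG and the TATA letters TATAA, read on both strands, in capitals. Col9a1 has an upstream window at chr1:24177360-24177609 and an inner one at chr1:24194953-24195202. The window of Col11a2 lies at chr17:34038888-34039137 and that of Col11a1 at chr3:114030290-114030539, all on the plus strand. Col9a1 and Col11a2 were both high, and Col11a1 low, in the cluster described first below.
Col9a1, upstream window: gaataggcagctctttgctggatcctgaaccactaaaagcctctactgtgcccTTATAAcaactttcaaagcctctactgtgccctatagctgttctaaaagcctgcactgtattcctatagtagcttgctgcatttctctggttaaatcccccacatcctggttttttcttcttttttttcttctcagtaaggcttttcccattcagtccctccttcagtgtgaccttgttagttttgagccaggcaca
Col9a1, inner window: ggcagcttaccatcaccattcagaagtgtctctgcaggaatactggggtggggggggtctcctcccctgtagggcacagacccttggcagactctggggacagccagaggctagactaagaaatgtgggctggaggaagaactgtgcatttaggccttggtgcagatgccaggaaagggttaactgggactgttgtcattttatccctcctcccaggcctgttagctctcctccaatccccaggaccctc
Col11a2: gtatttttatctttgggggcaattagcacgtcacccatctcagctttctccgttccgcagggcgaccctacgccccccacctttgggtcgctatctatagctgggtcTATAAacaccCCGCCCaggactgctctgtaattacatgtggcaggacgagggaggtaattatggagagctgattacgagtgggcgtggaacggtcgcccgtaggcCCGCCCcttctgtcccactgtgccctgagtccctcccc
Col11a1: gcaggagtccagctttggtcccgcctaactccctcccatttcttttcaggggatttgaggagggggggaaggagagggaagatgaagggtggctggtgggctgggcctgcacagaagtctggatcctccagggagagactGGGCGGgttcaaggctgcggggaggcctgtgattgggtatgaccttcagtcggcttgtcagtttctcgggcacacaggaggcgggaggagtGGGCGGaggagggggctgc
The Col11a2 and Col11a1 windows held 2 GC boxes each and the Col9a1 windows held 0, where 32.7% of 32851 windows of this length held at least 1. TATAA was found 2 times in the upstream Col9a1 window, as 1 run that reads the same on both strands, and 1 time in that of Col11a2. It was absent from the other 2 windows shown, and 22.8% of all windows held it. These matches describe the letters only. Col9a3 and Col2a1 had no entry in the promoter table.

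Collagen genes together gave 827 CPM in pool 1 (27654 UMIs, exact Poisson interval 818 to 837) and 579 CPM in pool 2 (23418 UMIs, 571 to 586). A median cell held 5 collagen UMIs in either pool, and 94.0% and 91.1% of cells held at least 1. Expression was concentrated in few genes. Col11a1, which encodes a chain of the fibril-forming type XI, alone gave 54.4% and 48.4% of collagen UMIs, and the 3 highest genes gave 75.5% and 71.1%. By level Col11a1 was gene 281 of 17447 in pool 1 and 540 of 17778 in pool 2.

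There were 7 collagen genes that reached at least 10 CPM in both pools. Col11a1 had 450 and 280 CPM in pools 1 and 2. Col16a1 had 102 and 82.0 CPM, Col9a3 had 72.6 and 49.1 CPM, and Col19a1 had 51.7 and 47.4 CPM. These 4 encode chains of types XI, XVI, IX and XIX, and the same 4 led in both pools. Col4a1 had 36.0 and 32.4 CPM, Col4a2 had 11.7 and 10.8 CPM, and Col11a2 had 22.9 and 12.8 CPM. Col4a1 and Col4a2 encode the chains of the common basement membrane collagen. Their levels stood at 36.8 and 32.2 CPM for Col4a1, and 11.3 and 11.2 CPM for Col4a2, in the 3068 and 2875 cells without any UMI of the vascular, mural or fibroblast markers.

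Another 11 genes were at 1 CPM or more in both pools without reaching 10 in both. Col20a1 stood apart among them because its pools lay at 24.4 and 8.40 CPM. Col5a3, of fibril-forming type V, leaned the other way, with 5.83 and 11.0 CPM. Col18a1 had 9.63 and 7.91 CPM, Col27a1 had 9.42 and 7.24 CPM, and Col9a2 had 6.64 and 6.82 CPM. The remaining 6 were Col5a1, Col26a1, Col12a1, Col24a1, Col9a1 and Col25a1, which ran from 1.06 to 6.77 CPM. The Poisson intervals of the 2 pools did not overlap for 8 of the 18 genes at 1 CPM or more, of which 7 were higher in pool 1 and Col5a3 in pool 2. With 2 pools in 1 group such differences describe the libraries, which also differed in depth and in Xist, and the part of either was not tested.

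The other 18 genes were under 1 CPM in at least 1 pool. They include the main fibrillar collagens of connective tissue: Col1a1 had 5 UMIs in pool 1 and was not listed in pool 2, and Col1a2 had 7 and 16 UMIs. Col2a1, the cartilage collagen, had 11 and 34 UMIs. The type IV genes Col4a3, Col4a4, Col4a5 and Col4a6 held between 0 and 38 UMIs in a pool. Col6a1 had 0.748 and 1.24 CPM, and Col6a2, Col6a3 and Col6a6 held at most 11 UMIs. Col7a1, the anchoring-fibril collagen, had 27 and 26 UMIs. Col13a1, Col14a1, Col15a1, Col22a1, Col23a1 and Col28a1 held between 0 and 14 UMIs. In all, 6 genes were listed in 1 pool only, Col1a1, Col13a1 and Col14a1 in pool 1 and Col4a3, Col6a3 and Col6a6 in pool 2. A gene with 0 UMIs in pool 2 may still have had up to 0.0911 CPM, the upper end of its Poisson interval.

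**Figure D1:**
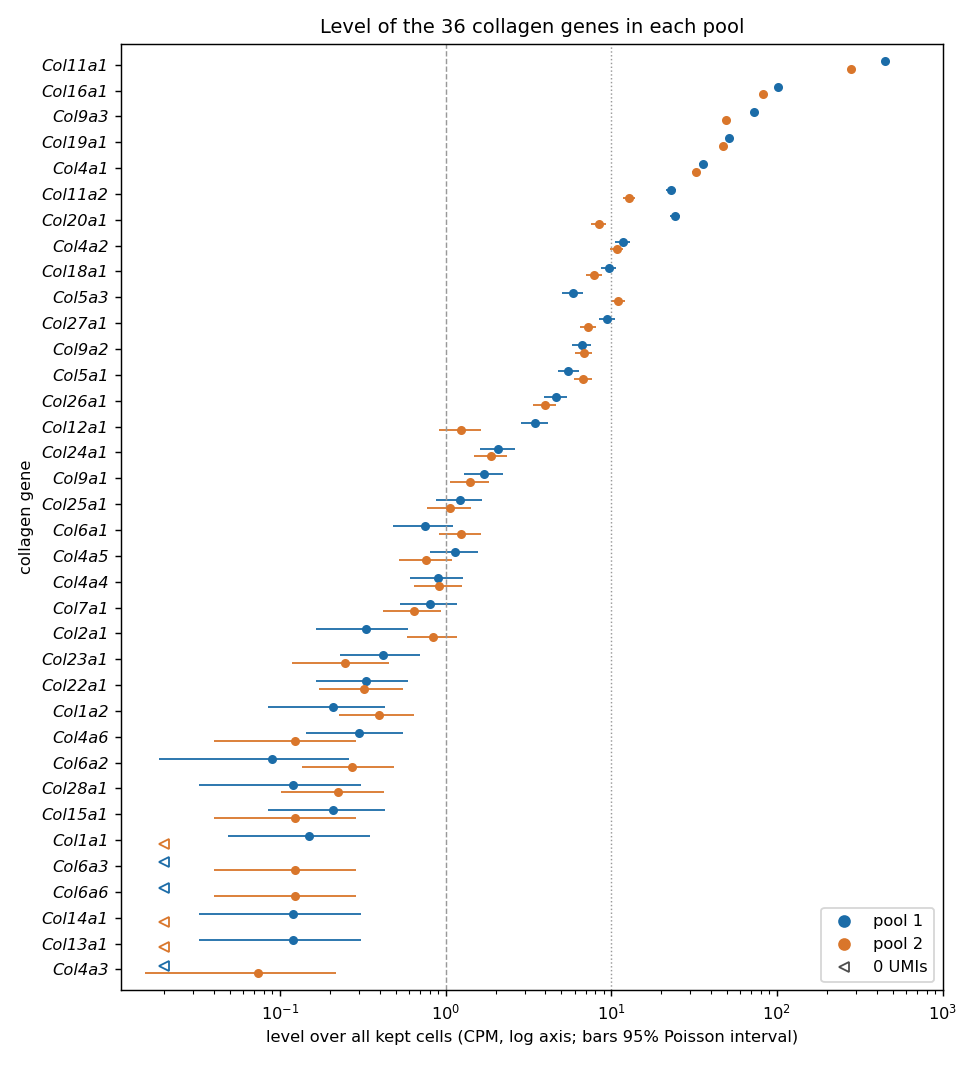
Level of each of the 36 collagen genes over all kept cells of pool 1 and pool 2, in CPM on a log axis, with 95% Poisson intervals; open triangles at the left mark 0 UMIs, and the lines mark 1 and 10 CPM. Col11a1 lies far to the right at 450 and 280 CPM, and the genes below 1 CPM fill the lower part.

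Cells were grouped by genes other than collagens, with a random part of the counts, and the held-out part was tested across the 10 clusters that had at least 20 cells in each pool. The held-out counts of each cluster and pool were added up and compared by edgeR's quasi-likelihood test, which treated the pools as blocks. Calls need a Benjamini-Hochberg adjusted p under 0.05 over 11355 genes and, for 1 cluster against the equal-weight mean of the others, both pools on the same side. The p-values therefore measure how far cluster differences varied between 2 pools, not between tumours. Of 36 collagen genes 17 passed the filter on low counts, and 15 of these differed between clusters, a share to be read against the 71.6% of all tested genes that did. Col4a2 and Col5a1 did not pass (adjusted p = 0.214 and 0.212). Col2a1 and Col9a1 passed the filter on low counts only through cluster 8, Col12a1 only through cluster 9, and Col26a1 only through clusters 0 and 5. Each of these 4 had to be uneven, and of the other 13 genes 11 differed between clusters. The 19 untested genes held 3 to 145 UMIs over both pools, with Col24a1 and Col25a1 the only ones among them at 1 CPM or more in both pools.

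**Figure D2:**
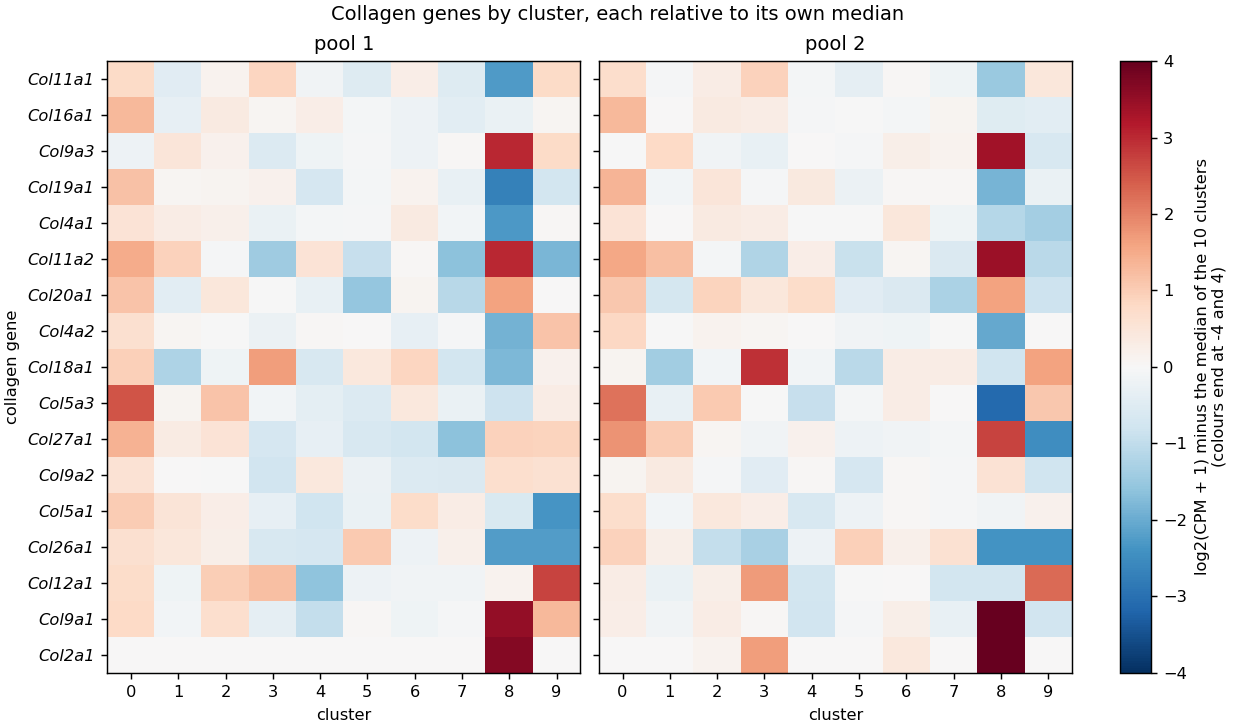
Colour shows log2(CPM + 1) of each tested collagen gene (rows) in clusters 0 to 9 (columns), minus the gene's own median over the clusters, with pool 1 on the left and pool 2 on the right; colours end at -4 and 4. Cluster 8 stands apart in both pools, with Col9a3, Col11a2, Col9a1 and Col2a1 high and Col11a1 and Col19a1 low, and cluster 3 with Col18a1 high.

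Cluster 8 differed from the rest in the proportions of its collagen genes. These 59 and 35 cells, 1.68% and 1.07% of their pools, were like committed oligodendrocyte precursors: Enpp6, Mbp and Bmp4 were among their leading genes, and 8 of 9 markers of that state and 7 of 12 of oligodendrocytes were over 2 times the median cluster in both pools. Pdgfra was at 177 and 242 CPM there, against 887 to 2646 CPM in the other clusters of pool 1 and 967 to 2875 CPM in those of pool 2. In cluster 8, 7 collagen genes were higher, where 11.6% of all genes tested were, and 4 were lower, where 9.83% were. Col2a1 and Col9a1 passed the filter only through cluster 8 and could count only as higher; of the other 15 genes, 5 were higher. The median log2 fold change was 0.43 over the 16 collagen genes that could be fitted, against 0.02 over the 11126 genes fitted of all genes tested. It was -0.17 with Col26a1, listed at 0 in cluster 8, ranked lowest. Both medians include Col2a1 and Col9a1, which could only lie high, so neither is read as a shift of the family. Total collagen did not set it apart, at 937 and 823 CPM, within the 526 to 1311 CPM of the other clusters in pool 1 and the 410 to 916 CPM of those in pool 2.

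All 3 type IX genes, which encode the chains of 1 fibril-associated collagen, were at their highest of the 10 tested clusters in cluster 8, in both pools. Col9a3 had 494 CPM (448 to 544) and 400 CPM (349 to 456) in cluster 8, against 40.2 to 101 CPM in the other clusters of pool 1 and 24.3 to 66.4 CPM in those of pool 2. No other tested cluster came near these levels; the 7 and 7 astrocyte-like cells of cluster 12, too few to be tested, had 172 and 58.7 CPM from 8 and 3 UMIs. The log2 fold change was 3.30 ± 0.15 (SE, edgeR quasi-likelihood adjusted p = 2e-19), with 3.17 in pool 1 alone and 3.55 in pool 2 alone. With cells thinned to 2000 UMIs, 27 of 56 cluster 8 cells of pool 1 (48.2%, exact Clopper-Pearson 34.7 to 62.0%) and 17 of 34 of pool 2 (50%, 32.4 to 67.6%) held a Col9a3 UMI, against 12.3% and 8.11% of all thinned cells. Unthinned, 52 of 59 and 30 of 35 cells held one. In the 6 and 12 thinned microglia-like cells, which should lack the gene, 0 held one, which allows shares up to 45.9% and 26.5%. Unthinned, they held 0 Col9a3 UMIs in pool 1 and 4 UMIs in 2 of 15 cells of pool 2, or 27.8 CPM, so this background is poorly bounded and was above 0 in pool 2. Their median depth was 1956 and 6847 UMIs, against 12741 and 14862 in cluster 8.

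Col9a1 had 21.2 and 46.2 CPM in cluster 8 (18 and 26 UMIs), against at most 3.74 CPM in any other cluster of pool 1 and at most 1.11 CPM in pool 2. Cluster 8 thus held 44 of the 114 Col9a1 UMIs of the tested clusters, in 12 and 15 cells. Its log2 fold change was 6.00 ± 0.76 (SE), given as a description with no test, since the gene entered the fit only through cluster 8. Col9a2 differed less, with 11.8 and 10.7 CPM in cluster 8 against 3.76 to 11.2 CPM in the other clusters of pool 1 and 3.47 to 8.97 CPM in those of pool 2 (log2 fold change 1.77 ± 0.50 SE, edgeR adjusted p = 0.0080). It rests on 10 and 6 UMIs, and with all counts tested in place of the held-out part it did not pass (adjusted p = 0.13).

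The 2 type XI genes went opposite ways. Col11a2 had 136 and 101 CPM in cluster 8, against 3.74 to 46.3 CPM in the other clusters of pool 1 and 3.14 to 26.7 CPM in those of pool 2. Cluster 8 was the highest of the 10 tested clusters in both pools, with a log2 fold change of 3.64 ± 0.24 (SE, edgeR adjusted p = 7e-15). Cluster 12 lay at 172 and 58.7 CPM of Col11a2, again from 8 and 3 UMIs. Col11a1 had 81.4 and 83.5 CPM in cluster 8, against 277 to 720 CPM in the other clusters of pool 1 and 183 to 450 CPM in those of pool 2. It was the lowest of the 10 clusters in both pools, with a log2 fold change of -2.35 ± 0.19 (SE, edgeR adjusted p = 1.2e-12). Cluster 8 was the 1 tested cluster in which Col11a2 was above Col11a1, by 136 against 81.4 CPM in pool 1 and 101 against 83.5 CPM in pool 2. Outside the tested clusters this order was also seen, from few UMIs. Oligodendrocyte-like cluster 11 had 3 and 11 UMIs of Col11a2 against 5 and 9 of Col11a1. Cluster 12 had 8 and 3 UMIs of Col11a2 against 2 and 9 of Col11a1. Thinned cells with a UMI of both were few: 3 of 56 and 0 of 34 in cluster 8, and 73 of 3117 and 21 of 2874 over all cells. Col11a2 was itself held by only 17 of 56 and 3 of 34 in cluster 8, and by 5.26% and 2.51% over all cells. Over all cells it was held by 4.59% and 1.91% of those with Col11a1, against 5.97% and 2.87% of those without. Whether the 2 genes avoid each other in single cells was not tested.

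Col2a1, the type II collagen that pairs with types IX and XI in cartilage, had 10 UMIs in 3 cells and 18 UMIs in 7 cells of cluster 8, which is 11.8 and 32.0 CPM. In the other tested clusters it was at 0 UMIs throughout pool 1 and at most 2.20 CPM, in cluster 3, in pool 2. Summed over pools its level was 89.1 times that of the other tested clusters, where it had 16 UMIs (interval of the ratio 46.6 to 176, counting error only). In pool 1, 1 cell held 7 of the 10 UMIs, which the interval treats as independent. Untested cluster 12 had 1 Col2a1 UMI in pool 1, a CPM above that of cluster 8 there, and 0 in pool 2. The fitted log2 fold change of 7.39 ± 1.08 (SE) depends on how zeros are handled and is a description with no test, since Col2a1 too entered the fit only through cluster 8.

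Col20a1 and Col27a1 were higher too. Col20a1 had 68.4 and 23.1 CPM in cluster 8, above every other cluster of either pool, of which cluster 0 came closest at 49.6 and 15.7 CPM (log2 fold change 1.91 ± 0.34 SE, edgeR adjusted p = 4.4e-05). Col27a1, a fibril-forming collagen known from cartilage, had 15.3 and 35.5 CPM in cluster 8, against 1.77 to 21.7 CPM in the other clusters of pool 1 and 0 to 18.3 CPM in those of pool 2 (2.34 ± 0.50 SE, adjusted p = 4e-04). In pool 1 cluster 0 lay above it. Outside the tested clusters, microglia-like cells had 19.7 and 62.5 CPM of Col27a1 (1 and 9 UMIs) and cluster 12 had 86.1 and 19.6 CPM (4 and 1 UMIs), few UMIs but not below cluster 8 in every pool.

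Col19a1, Col4a1 and Col4a2 were lower in cluster 8. Col19a1 had 5.90 and 10.7 CPM, against 26.2 to 101 CPM in the other clusters of pool 1 and 34.7 to 108 CPM in those of pool 2 (log2 fold change -2.33 ± 0.46 SE, edgeR adjusted p = 1.9e-04). Its 3′ end faces that of Col9a1 on chromosome 1, 9.205 kb away on the other strand, and the 2 neighbours moved in opposite directions. Col4a1 had 5.90 and 12.4 CPM in cluster 8, against 27.0 to 48.2 CPM and 10.4 to 42.4 CPM in the other clusters (-1.41 ± 0.47 SE, edgeR adjusted p = 0.028). Col4a2, which overlaps the start of Col4a1 by 22 bases on the opposite strand of chromosome 8, had 2 and 1 UMIs there (-2.85 ± 1.03 SE, adjusted p = 0.044), with -5.43 in pool 1 alone and -0.92 in pool 2 alone. Col4a2 passed in this contrast although it did not in the test over all clusters, and of the 11 calls of cluster 8 those of Col4a2 and Col20a1 were lost when the pool was left out of the model. Col26a1 had 0 UMIs in cluster 8, where 3 UMIs would be 2.13 CPM, against 4.37 CPM in the other clusters, and could not be fitted there. The other 5 tested genes did not pass; among them Col16a1 had 73.1 and 49.8 CPM in cluster 8 and a log2 fold change of -0.17 ± 0.21 SE.

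**Figure D3:**
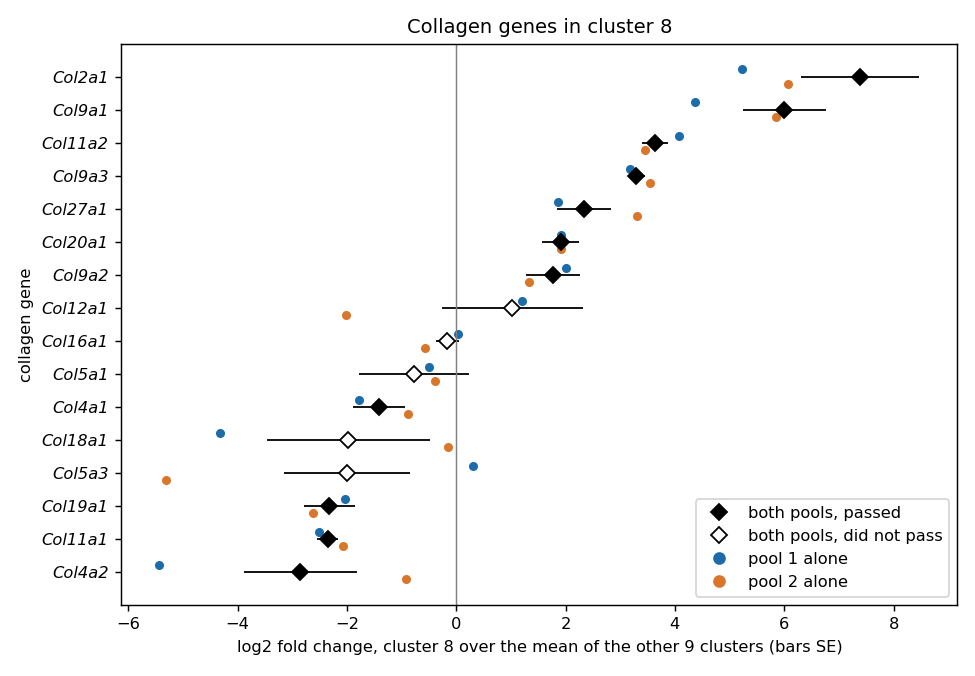
Log2 fold change of each collagen gene in cluster 8 over the mean of the other 9 clusters; diamonds give the fit over both pools with its SE, filled where it passed, and dots give pool 1 and pool 2 alone. Col2a1, Col9a1, Col11a2 and Col9a3 lie far to the right, Col11a1, Col19a1 and Col4a2 to the left, and the pools of Col4a2, Col18a1 and Col5a3 lie far apart; Col2a1 and Col9a1 entered the fit only through cluster 8, and Col26a1, with 0 UMIs there, is not drawn.

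**Figure D4:**
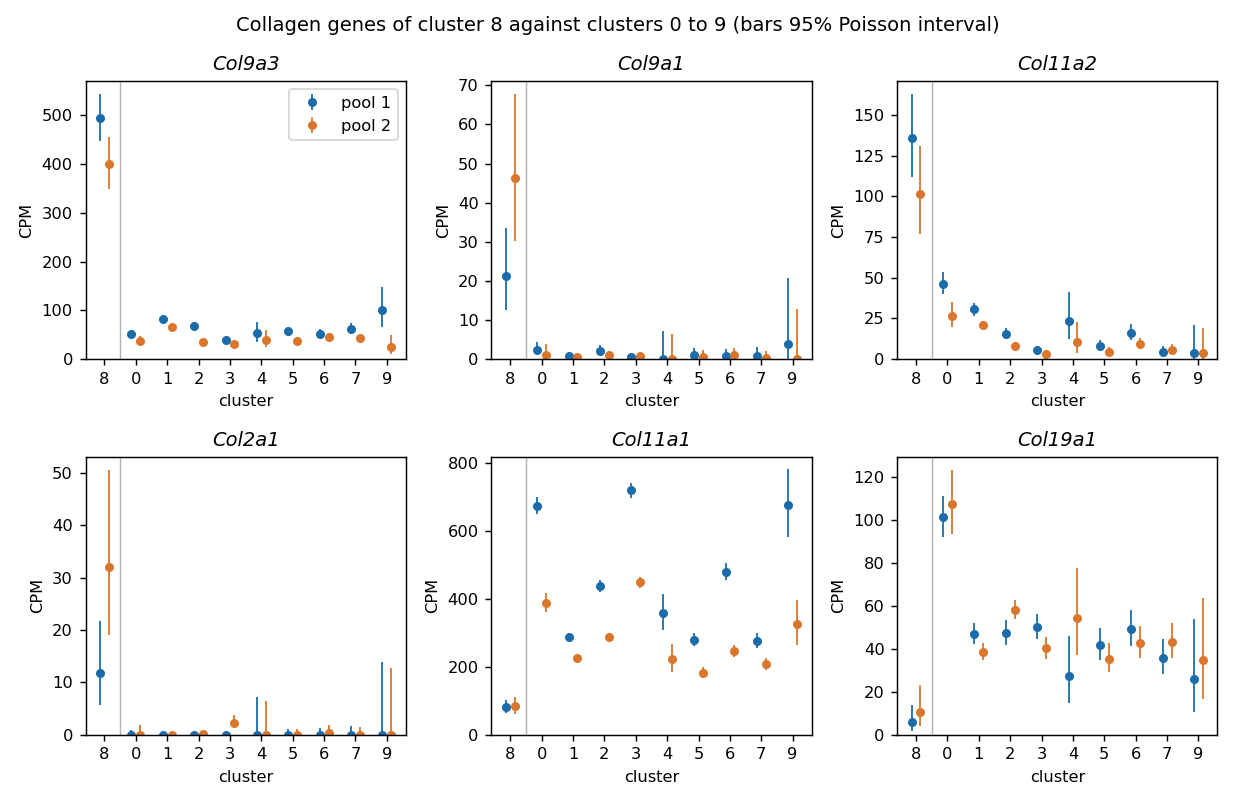
CPM of 6 collagen genes by cluster in pool 1 and pool 2, with cluster 8 at the left of each panel and 95% Poisson intervals. Of the 10 clusters shown, cluster 8 is highest for Col9a3, Col9a1, Col11a2 and Col2a1 and lowest for Col11a1 and Col19a1 in both pools.

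The 4 and 20 cells of cluster 11, like mature oligodendrocytes, were too few in pool 1 to be tested. Their Col9a3 level was 54.1 and 18.0 CPM and their Col11a2 level 32.5 and 39.7 CPM, and Col9a1 and Col2a1 were at 0 UMIs in both pools. Microglia-like cells (12 and 15) held 39.5 and 181 CPM of Col11a1 from 2 and 26 UMIs, and 19.7 and 347 CPM of Pdgfra, which such cells should lack.

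Counts of genes that make, bind or degrade collagen are read against the 11.6% of all genes tested that were higher and the 9.83% that were lower in cluster 8. Of 7 collagen receptor genes tested (14 in the list), 4 were lower and 0 higher: the integrin gene Itga1, the discoidin receptor genes Ddr2 and Ddr1, and Adgrg1, known as a receptor for type III collagen. Itga1 fell to 5.90 and 0 CPM in cluster 8, against 73.0 and 55.4 CPM over all cells. The median log2 fold change of the 6 receptor genes that could be fitted was -0.72, against 0.02 over all genes fitted. Of 9 breakdown genes tested (14 in the list), 3 membrane-type matrix metalloproteinase genes were lower and 2 inhibitor genes higher. Mmp15 had 86.1 and 124 CPM in cluster 8, against 583 and 582 CPM over all cells, and Timp3 had 117 and 254 CPM, against 36.1 and 44.4 CPM. Mmp16 (log2 fold change -1.80 ± 0.18 SE) and Timp4 (1.18 ± 0.16 SE) passed as well.

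Of 18 folding and modification genes tested (23 in the list), Plod2, a lysyl hydroxylase of collagen telopeptides, and P4hb, a subunit of prolyl hydroxylase, were higher and Mia3, which helps load collagen for secretion, was lower, shares near those of all genes. Plod2 had 112 and 85.3 CPM in cluster 8, against 25.7 and 22.3 CPM over all cells. Serpinh1, the collagen chaperone HSP47, was at 0.808 and 0.716 CPM over all cells. Of 7 maturation genes tested (15 in the list), the cross-linking enzyme gene Tgm2 was higher and Pcolce2 lower. Tgm2 had 2 and 6 UMIs in cluster 8, or 2.36 and 10.7 CPM, and did not pass in the test over all clusters (edgeR adjusted p = 0.076). Of 11 basement membrane and collagen-binding genes tested (25 in the list), 5 were higher and 0 lower, led by Bgn, Vcan, Sparc and Matn2. Sparc had 40.1 and 87.1 CPM in cluster 8, against 40.1 and 29.1 CPM over all cells. In pool 1 it was therefore higher against the equal-weight mean of the other clusters only. Bgn, the small proteoglycan biglycan, had 50.7 and 119 CPM in cluster 8, against 2.09 and 2.03 CPM over all cells. It passed the filter on low counts only through cluster 8, and of the other 10 genes 4 were higher. Vcan, which is also in the precursor marker list, had 931 and 876 CPM in cluster 8, against 465 and 361 CPM.

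Cluster 3 had 3 collagen genes higher, where 14.8% of all genes tested were, and 2 were lower, where 6.2% were. This cluster held 393 and 352 cells, with haemoglobin, Vgf, S100a10 and Isg15 among its leading genes. Col18a1, the source of endostatin, had 23.1 and 35.5 CPM in cluster 3, against 1.18 to 13.8 CPM in the other clusters of pool 1 and 0.832 to 13.9 CPM in those of pool 2. It was highest in cluster 3 in both pools, with a log2 fold change of 2.95 ± 0.33 (SE, edgeR adjusted p = 3.6e-08). Cluster 3 held 41.9% of the Col18a1 UMIs of pool 1 and 70.6% of those of pool 2.

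Col11a1 was highest there as well, at 720 and 450 CPM in cluster 3, against 81.4 to 677 CPM in the other clusters of pool 1 and 83.5 to 388 CPM in those of pool 2 (log2 fold change 1.16 ± 0.09 SE, edgeR adjusted p = 5.6e-12). Col12a1, a fibril-associated collagen, had 5.98 and 4.40 CPM in cluster 3, and was above it only in cluster 9, at 18.7 and 6.93 CPM (2.07 ± 0.59 SE, adjusted p = 0.0094). It did not pass when the pool was left out of the model (adjusted p = 0.076). Col11a2 was lower, at 5.30 and 3.14 CPM, and so was Col9a3, at 40.2 and 30.6 CPM (log2 fold changes -1.86 ± 0.42 and -0.74 ± 0.16 SE). Col6a1, untested after the filter on low counts, had 41 of its 75 UMIs in the tested clusters in cluster 3. That is 6.02 times the level of the other tested clusters (3.73 to 9.79, counting error only).

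List counts in cluster 3 are likewise read against 14.8% of all genes higher and 6.2% lower. All 11 hypoxia genes tested (13 in the list) were higher in cluster 3, with a median log2 fold change of 1.39, against 0.07 over all genes. Ldha, for example, had 456 and 496 CPM in cluster 3, against 254 and 260 CPM over all cells. Of 18 folding and modification genes 8 were higher and 0 lower, led by Sec13, Plod2, P3h2 and Crtap, which serve collagen export, lysyl hydroxylation and prolyl 3-hydroxylation. Of 7 receptor genes 3 were higher, Itga1, Cd44 and Itgb1, and Ptprs was lower. Timp1, Mmp14 and Mmp15 were higher among 9 breakdown genes and Timp3 lower. Timp1 passed the filter only through cluster 3, which leaves 2 of 8 higher. Mmp15 was higher against the equal-weight mean of the other clusters only. It had 551 and 532 CPM in cluster 3, below its 583 and 582 CPM over all cells. Bmp1 and Pcolce2, which process procollagen, were higher among 7 maturation genes, and among 11 basement membrane and collagen-binding genes 0 were higher and 2, Matn4 and Vcan, lower. Erythroid markers summed to 378 CPM in cluster 3 of pool 2, the highest of the clusters, while in pool 1 they summed to 0.0897 CPM over all cells; their part in the collagen values was not tested.

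**Figure D5:**
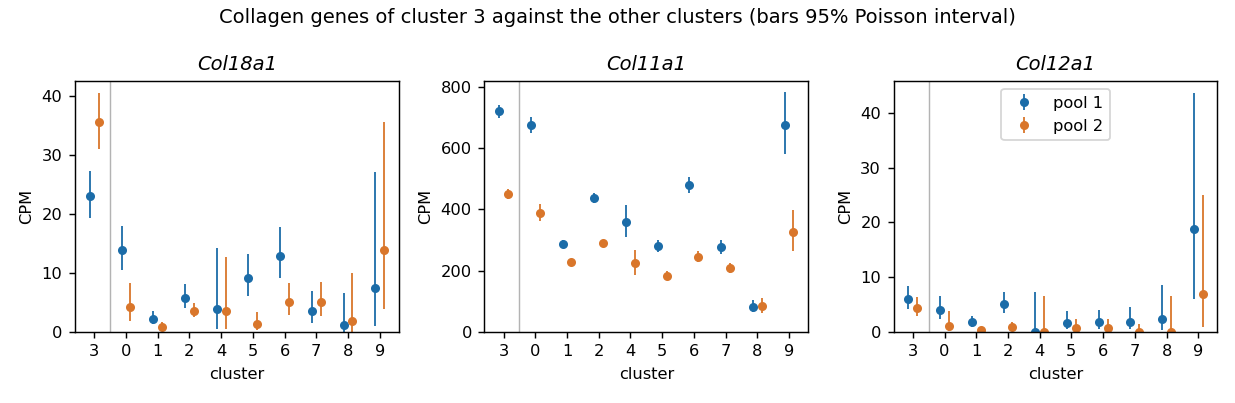
CPM of Col18a1, Col11a1 and Col12a1 by cluster in pool 1 and pool 2, with cluster 3 at the left of each panel and 95% Poisson intervals. Col18a1 reaches 23.1 and 35.5 CPM in cluster 3, and Col12a1 is above its cluster 3 level only in cluster 9, with wide intervals.

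Cluster 0 had a higher collagen level than any other cluster tested, at 1311 and 916 CPM, against 526 to 1044 CPM in the other clusters of pool 1 and 410 to 823 CPM in those of pool 2. Its 1135 and 647 cells were shallow, with medians of 3137 and 2530 UMIs. Malat1, an RNA kept in the nucleus, was at 100122 and 120178 CPM in cluster 0, against 26616 to 48635 CPM in the other clusters of pool 1 and 25469 to 52465 CPM in those of pool 2. There were 11 collagen genes higher in cluster 0, where 33.1% of all genes tested were, and Col9a3 alone was lower, where 24.4% were. The Col9a3 call is against an equal-weight mean that includes cluster 8, at 494 and 400 CPM. In cluster 0 Col9a3 had 51.3 and 37.6 CPM, against medians of 61.9 and 38.8 CPM over the other tested clusters. Without Col26a1, which passed the filter only through clusters 0 and 5, 10 of 16 collagen genes were higher. The part of nuclear RNA in this was not tested.

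Col5a3 had 21.0 and 38.2 CPM in cluster 0, against no more than 7.53 CPM in the other clusters of pool 1 and at most 17.3 CPM in those of pool 2 (log2 fold change 2.51 ± 0.31 SE, edgeR adjusted p = 1e-08). Col16a1 had 216 and 172 CPM in cluster 0, with no other cluster above 112 and 90.1 CPM (1.12 ± 0.11 SE, edgeR adjusted p = 1.4e-10). Col19a1 had 101 and 108 CPM there, with no other cluster above 50.2 and 58.2 CPM (1.34 ± 0.16 SE, adjusted p = 3.2e-09). Both pools were above every other cluster for these 3 genes. Col26a1, Col27a1, Col11a2, Col5a1, Col20a1, Col4a2, Col11a1 and Col4a1 were higher by log2 fold changes of 0.65 to 2.08. Among them Col5a1 and Col4a2 did not pass in the test over all clusters. The calls of Col20a1, Col26a1 and Col4a2 passed under 6 of 7 alternatives each. For Col26a1 the pools alone gave 0.81 and 2.81. The median over the 16 collagen genes that could be fitted, Col26a1 among them, was 1.09, against 0.21 over all genes fitted. Against 33.1% of all genes higher and 24.4% lower, 5 of 7 receptor genes, 5 of 11 basement membrane and collagen-binding genes, 4 of 9 breakdown genes, 2 of 7 maturation genes and 2 of 18 folding genes were higher; 4 of the 18 folding genes, 1 of the 11 and 1 of the 9 were lower.

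In the other clusters fewer collagen genes passed. Cluster 1, led by Rph3a and Rlbp1, had Col11a2 higher, at 30.5 and 20.7 CPM (log2 fold change 1.01 ± 0.20 SE, edgeR adjusted p = 4.3e-04), and Col16a1 lower (-0.36 ± 0.12 SE); 13.5% of all genes tested were called there. Cluster 2, led by Aldoc and Htra1, had Col5a3, Col20a1, Col19a1 and Col11a1 higher by log2 fold changes of 0.30 to 1.04, where 12.2% of all genes were called. These calls are against the equal-weight mean of the other clusters. In pool 1 Col11a1 and Col19a1 lay below their levels over all cells, 450 and 51.7 CPM, and in pool 2 above them. The cluster 2 calls of Col11a1 and Col19a1 passed under 4 of 8 alternatives each, that of Col20a1 under 7 and that of Col5a3 under 6. Cluster 9, with 26 and 21 cells and led by immediate early genes such as Fosb, had Col11a1 higher, at 677 and 326 CPM (0.88 ± 0.15 SE, edgeR adjusted p = 7.5e-04), where 0.432% of all genes were called. In cluster 4, of cells with medians of 1383 and 1460 UMIs, 0 collagen genes were called.

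Dividing cells formed 3 clusters. Cluster 5, led by the mitotic genes Ccnb1 and Cenpa, had 5 collagen genes called, where 17.9% of all genes tested were. Without Col26a1, which passed the filter only through clusters 0 and 5, 0 of 16 were higher and 4 were lower. Col26a1, whose protein is known from the reproductive tract, was higher there at 8.78 and 9.01 CPM (log2 fold change 2.85 ± 0.64 SE, a description with no test). Cluster 0 came next in both pools, at 6.44 and 8.89 CPM, and the gene passed the filter only through these clusters. Col20a1 was lower in cluster 5, at 6.83 and 4.83 CPM (-1.69 ± 0.38 SE, edgeR adjusted p = 0.0011), as were Col11a2, Col9a3 and Col11a1 (-1.34, -0.52 and -0.43). The Col9a3 call is against an equal-weight mean that includes cluster 8, at 494 and 400 CPM. In cluster 5 Col9a3 had 57.6 and 37.3 CPM, just below the medians of the other tested clusters, 61.9 and 38.8 CPM. Cluster 6, led by the replication genes Hells and Mcm3, had Col16a1 and Col27a1 lower (-0.46 ± 0.14 and -1.78 ± 0.57 SE), where 10.6% of all genes were called. Cluster 7, led by histone genes, had Col11a2, Col20a1 and Col16a1 lower (-1.46 ± 0.43, -1.44 ± 0.40 and -0.46 ± 0.15 SE), where 18% of all genes were called. Of the 17 collagen calls in clusters 1, 2, 5, 6, 7 and 9, those of Col11a2 in cluster 1 and Col26a1 in cluster 5 passed under every alternative tried, with the limit just given for Col26a1.

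Within clusters, cycling cells were not shown to differ in collagen expression. Cells with UMIs of at least 2 of 10 core cycling genes, after thinning, were compared with cells that had 0 in the 3 clusters with enough of both, 123 and 73 cycling cells against 874 and 1065 non-cycling cells. Of 8 collagen genes tested 0 were called by edgeR, where 1.1% of all 8392 genes were, and 1, Col19a1, had an unadjusted p under 0.05. DESeq2 called 0 as well. Col11a1 had a log2 difference of -0.17 ± 0.12 (SE, edgeR adjusted p = 0.75), with -0.38 in pool 1 alone and 0.14 in pool 2 alone. Col19a1 had -0.56 ± 0.26 (SE, edgeR adjusted p = 0.47), with -0.08 in pool 1 alone and -2.65 in pool 2 alone. All 10 core cycling genes were higher, which is how the cells were chosen.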

How the data were processed

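The deposited tables hold whole UMI counts for each gene in each barcode, not normalized, as the values show. The submitters' processing notes name Cell Ranger 6.0.2 and the builds GRCm38 and mm10; the filters behind the tables are not given in these sources. The members and the gene lists were chosen with earlier results of these data known. Gene positions came from GENCODE vM21 (GRCm38).

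Barcodes under 500 genes or over 15% mitochondrial UMIs were left out. Each count was divided at random (binomial, 0.5) into a training and a held-out part. Training counts, without collagen genes, the tested lists, mitochondrial, ribosomal protein, Xist, Tsix and Y-linked genes, were clustered on 1000 variable genes, 30 principal components and 15 neighbours by Leiden clustering (resolution 0.8; igraph 0.11.9, scanpy 1.11.5 and Python 3.11.15). Clusters of under 20 cells in a pool were not tested. Cluster names came from marker lists. Scrublet called 0 and 2 doublets, against 2.80% and 2.62% of cells expected, so it did not work and doublets remain; an alternative left out the 98 and 86 cells of highest doublet score.

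Held-out counts were added up over the cells of each cluster in each pool, filtered with filterByExpr, scaled by TMM and tested with edgeR 4.0.16 (R 4.3.3, limma 3.58.1), with the pool as a block (20 libraries, 9 residual degrees of freedom). Clustering genes were left out of the calls. Sums in a pool come from the same tumours. DESeq2 1.42.0 was an alternative. Single-pool folds are means of log2 CPM with a small prior count and carry no test. The tests were checked on simulated counts. Genes named were those at 10 CPM or more in both pools or called in a test, and of each list up to 4 called genes of smallest adjusted p. Levels are CPM over all kept counts with exact Poisson intervals. Pools held 33.9 M and 40.9 M UMIs.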

Additional observations from a re-analysis of the deposited data

How the results depend on the processing

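Of 17 collagen genes tested, 15 differed between clusters, against 71.6% of all genes tested. Col2a1, Col9a1, Col12a1 and Col26a1, which had to be uneven, are among the 15. Under the 12 alternatives 12 to 16 differed, of 16 to 36 tested. The count was 12 of 17 without the pool as a block (6641 of 11355 over all genes). It was 13 of 17 with DESeq2 and 13 of 16 with another random division of the counts. It was 16 of 36 without the filter on low counts (8359 of 17189) and 16 of 19 with all counts tested (9259 of 12266). Without clusters 0 and 4 it was 14 of 17 (5521 of 11099). The number of calls in single clusters was 45. It was 28 without the pool as a block, which ended 17 calls, and 27 without clusters 0 and 4, an alternative chosen after seeing the data, in which the 12 calls of cluster 0 cannot arise and 25 of the other 33 passed. No call changed direction under an alternative, and 23 of the 45 passed under each one run for it, among them 8 of the 11 of cluster 8; the exceptions there were Col20a1, Col4a2 and Col9a2. Of those 8, Col2a1 and Col9a1 entered the fit only through cluster 8, so passing shows no stability. Calls in cycling cells were 0, and 0 also without either pool; with the pool alone as the block there was 1 (Col27a1, lower). The collagen total, 703 CPM on average, was 579 CPM without pool 1 and 827 CPM without pool 2, and 18 genes were at 1 CPM or more in both pools, against 13 at 5 CPM. With 2 pools of 2 tumours each, spread between animals is unknown, and small clusters bound genes of low level poorly.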
